A study of Mus musculus with 6 samples.

Results

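Lysosomal lipid and sulfate ester breakdown is described here through 10 genes, Psap, Npc2, Grn, Asah1, Lipa, Ppt1, Arsa, Galns, Ids and Sgsh, taken by name from 12393 genes measured in mouse liver. All 10 were on the array, with 22 probe sets between them, and each gene is represented by its lead probe set, the one with the highest mean over all 6 arrays. Liver RNA came from 3 TFEB-injected and 3 not-injected mice. All 6 mice were labelled Ppara KO (lacking the gene of a nuclear receptor for fatty acids) on a C57 background and were 1 month old. The injected mice carried an adenoviral vector; their labels name TFEB, a transcription factor that activates lysosomal genes. The controls received no vector, so vector and TFEB cannot be told apart. The promoter of the vector, the species of its TFEB and the time after injection are not stated in the sources used here. The labels call the arrays biological replicates, and each is read here as 1 mouse. The number of arrays limits the precision.

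Lysosomes take apart membrane lipids, cholesteryl esters and sulfated sugar chains with acid hydrolases, and many of these need a helper that lifts the lipid out of the membrane or hands the product on. Sulfatases work only after a cysteine of their active site has been turned into formylglycine by the enzyme that Sumf1 encodes. Human loss of single members causes storage diseases: Wolman disease (LIPA), metachromatic leukodystrophy (ARSA), Farber disease (ASAH1) and several mucopolysaccharidoses (SGSH, IDS, GALNS). TFEB is known to bind the CLEAR element, a palindrome around the letters CACGTG, near the start sites of lysosomal genes.

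RefSeq promoter windows (build GRCm38.p6, 250 bases before to 50 after the start site) were at hand for 8 of the 10 genes and not for Asah1 and Galns. The letters CACGTG, their own reverse complement and so the same on both strands, stood in the windows of Arsa and Sgsh and in 7.15% of all 32851 windows. The longer palindrome TCACGTGA (0.974% of windows), and the full CLEAR palindrome, which adds G before and C after it (0.326%), stood in none of the 8. The RefSeq table holds 2 windows for Psap; the one at the annotated gene start was used, and the other (chr10:60284211-60284510, plus strand) held no CACGTG either. All 3 sets of letters overlap one another. In a search added after these results were seen, a match to the full palindrome with up to 2 mismatches was found in the windows of Arsa, Sgsh and Ppt1, and in 10.2% of all windows. These 3 windows are printed because they hold the nearest matches, beside 2 genes that rose and 1 that did not pass the test. They are Arsa (chr15:89477375-89477674, minus strand), Sgsh (chr11:119355461-119355760, minus strand) and Ppt1 (chr4:122835977-122836276, plus strand). Capitals mark CACGTG in the first pair, starting 16 bases before the start site in Arsa and 29 before in Sgsh, and the best match in Ppt1, starting 12 bases after the first transcribed base.
Arsa: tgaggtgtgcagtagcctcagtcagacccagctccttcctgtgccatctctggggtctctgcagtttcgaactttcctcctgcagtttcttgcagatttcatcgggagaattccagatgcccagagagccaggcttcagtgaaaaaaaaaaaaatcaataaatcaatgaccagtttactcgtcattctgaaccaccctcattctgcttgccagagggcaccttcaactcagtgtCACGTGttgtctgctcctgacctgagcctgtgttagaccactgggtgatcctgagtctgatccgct
Sgsh: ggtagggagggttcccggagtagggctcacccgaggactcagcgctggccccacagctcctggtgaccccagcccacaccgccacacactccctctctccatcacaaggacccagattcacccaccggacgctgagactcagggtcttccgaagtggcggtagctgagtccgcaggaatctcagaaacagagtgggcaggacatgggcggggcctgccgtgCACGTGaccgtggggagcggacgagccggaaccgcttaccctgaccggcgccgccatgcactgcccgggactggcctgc
Ppt1: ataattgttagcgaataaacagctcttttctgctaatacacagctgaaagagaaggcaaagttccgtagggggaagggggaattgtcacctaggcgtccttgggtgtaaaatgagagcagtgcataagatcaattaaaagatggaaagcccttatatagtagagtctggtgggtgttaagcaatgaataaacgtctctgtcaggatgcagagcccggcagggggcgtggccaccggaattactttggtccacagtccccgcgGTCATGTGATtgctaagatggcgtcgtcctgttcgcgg
A match describes letters in a window and is not a bound site.

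The comparison asks which of these genes differ between TFEB-injected and not-injected livers. Of the 10 genes, 6 rose in TFEB-injected livers (Arsa, Grn, Psap, Ppt1, Npc2 and Galns) and 0 fell, by limma at an adjusted p under 0.05 (Benjamini-Hochberg, all genes tested). Over all 12393 genes 9.99% rose and 7.92% fell. The 10 genes were chosen with earlier results of these data known, so a share above that of all genes is description and not a test. The median log2 change was 0.31 over the 10 genes, against -0.014 over all genes. Every TFEB-injected liver lay above every not-injected liver in 7 of the 10 genes, those that rose and Lipa, and in 18.2% of all genes. Asah1, Ids and Sgsh had overlapping groups. In a fit of only the 6197 genes at or above the median level, 20.7% rose and 15.8% fell. That fit held 8 of the 10 genes, and 7 of them rose, Lipa included. Liver RNA is a mixture, so a change in the number of cells of a type and a change in RNA per cell cannot be told apart.

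**Figure D1:**
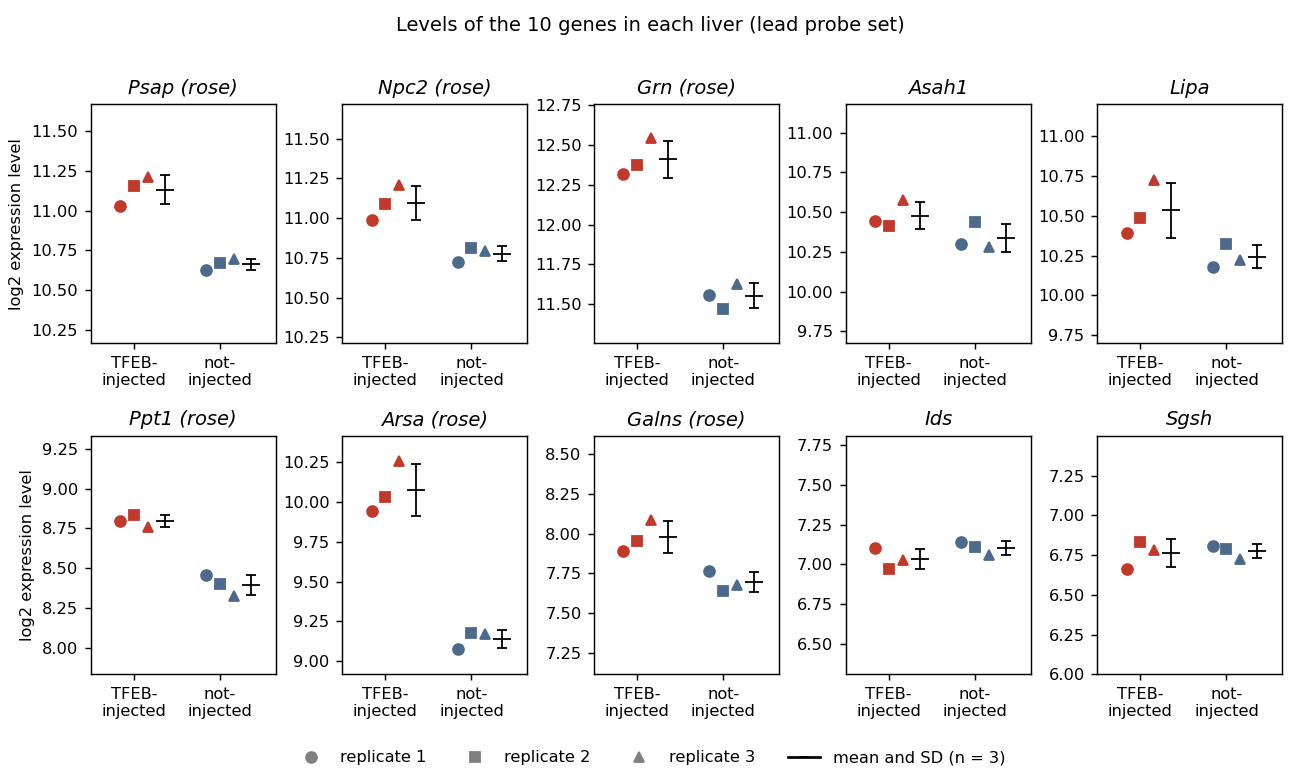
Log2 expression level (vertical axis, 1.5 log2 units in every panel) of the lead probe set of each gene in the 3 TFEB-injected and the 3 not-injected livers, with mean and SD beside the points and symbols for the replicate number. Arsa and Grn stand furthest apart between the groups, while Asah1, Ids and Sgsh overlap.

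Helper proteins without hydrolase activity come first. Psap encodes prosaposin, the precursor of the saposins, which present sphingolipids to their hydrolases. Its log2 level was 11.03, 11.15 and 11.21 in TFEB-injected livers, against 10.62, 10.67 and 10.69 in not-injected livers. The groups were separate, and the gap between them was wider than the spread within either. Psap rose 1.38-fold (log2 change 0.47 ± 0.06 SE; 95% interval 0.33 to 0.61; limma adjusted p = 0.00184). Its other probe set rose as well (0.41 ± 0.07; adjusted p = 0.00721 over all probe sets).

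Npc2 encodes a small sterol-binding protein that hands cholesterol to the membrane protein NPC1 for export. It had log2 levels of 10.99, 11.09 and 11.21 in TFEB-injected livers, against 10.72, 10.81 and 10.79 in not-injected livers. The groups did not overlap, and TFEB-injected replicate 1 lay closest to the not-injected range. Npc2 rose by 0.32 ± 0.06 on the log2 scale (1.25-fold; limma adjusted p = 0.0146), and its second probe set by 0.31 ± 0.06 (adjusted p = 0.0120 over all probe sets). Leaving out not-injected replicate 1 (adjusted p = 0.0623) or, separately, TFEB-injected replicate 2 (0.0565) ended the call. Npc1, for the partner of NPC2, rose by 0.15 ± 0.04 (adjusted p = 0.0491), a value near the threshold; it was named after its value was seen, and leaving out any single array ended its call (highest adjusted p 0.139).

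Grn encodes progranulin, a secreted and lysosomal protein that is cut into granulins and can travel to lysosomes bound to prosaposin. Its log2 level was 12.32, 12.38 and 12.54 in TFEB-injected livers, against 11.56, 11.47 and 11.63 in not-injected livers. All 3 injected livers were high, and the lowest of them stood well clear of the highest control. Grn rose 1.82-fold (log2 change 0.86 ± 0.07 SE; 95% interval 0.69 to 1.03; limma adjusted p = 3.76e-04), the smallest p of the 10 genes. Its lead probe set ends in _x_at, which can pick up related sequences. The probe set without that suffix gave 0.88 ± 0.07 and the third 0.80 ± 0.08, so all 3 had nearly the same change. Grn and Psap, whose proteins meet on the way to the lysosome, both rose, with intervals that do not overlap; the difference between them was not tested.

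Hydrolases of lipids and of lipid-modified proteins come next. Ppt1 encodes palmitoyl-protein thioesterase, which removes fatty acids from cysteines of proteins. It had log2 levels of 8.80, 8.84 and 8.76 in TFEB-injected livers, against 8.45, 8.40 and 8.33 in not-injected livers. On this lead probe set the injected livers were closely alike, with an SD of 0.04, and TFEB-injected replicate 3 was the lowest of them. On the dimmer probe set of Ppt1 their SD was 0.12, and replicate 3 was the highest at 7.93. Ppt1 rose by 0.40 ± 0.05 on the log2 scale (1.32-fold; limma adjusted p = 0.00206), and its dimmer probe set by 0.53 ± 0.07 (adjusted p = 0.00226 over all probe sets).

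Lipa encodes lysosomal acid lipase, which splits cholesteryl esters and triglycerides delivered to lysosomes. Its log2 level was 10.39, 10.49 and 10.72 in TFEB-injected livers, against 10.18, 10.32 and 10.22 in not-injected livers. The groups were separate by a narrow margin, 10.39 in the lowest injected liver against 10.32 in the highest control. Lipa did not pass the threshold (log2 change 0.29 ± 0.09 SE; 95% interval 0.09 to 0.50; limma adjusted p = 0.0611), although it did when TFEB-injected replicate 1 was left out (adjusted p = 0.0285). Its other probe sets gave 0.24 ± 0.08 and 0.08 ± 0.12, and the weakest of them had overlapping groups, with TFEB-injected replicate 3 at 9.87 and the other 2 injected livers at 9.39 and 9.46.

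Asah1 encodes acid ceramidase, which splits ceramide into sphingosine and a fatty acid. It had log2 levels of 10.45, 10.41 and 10.58 in TFEB-injected livers, against 10.30, 10.44 and 10.28 in not-injected livers. Not-injected replicate 2 lay inside the injected range. The log2 change was 0.14 ± 0.07 with a 95% interval from -0.01 to 0.30 (limma adjusted p = 0.193), so the data leave room for anything between no rise and about 1.23-fold. Saposins, the products of Psap, are activators of this enzyme and of other sphingolipid hydrolases; Psap passed the test and Asah1 did not, and the difference between their changes was not tested.

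**Figure D2:**
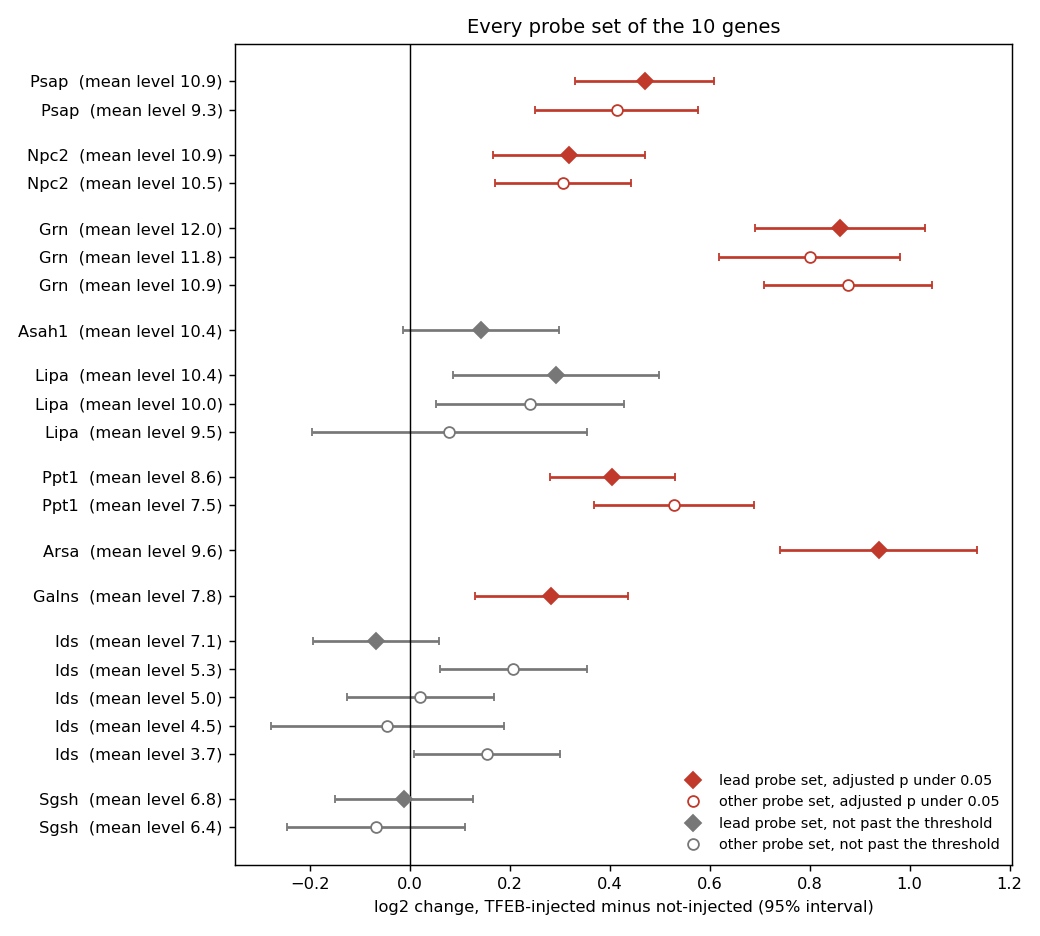
Log2 change (TFEB-injected minus not-injected, horizontal axis, with 95% intervals) of all 22 probe sets, grouped by gene, with the mean log2 level of each probe set. The probe sets of Psap, Npc2, Grn and Ppt1 lie together above 0, whereas those of Lipa and Ids spread, the 5 Ids probe sets on both sides of 0.

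Of the 4 sulfatase genes, Arsa and Galns rose, and Ids and Sgsh did not pass the test. Arsa encodes arylsulfatase A, which takes the sulfate off sulfatide, a sphingolipid of myelin and other membranes. Its log2 level was 9.94, 10.03 and 10.26 in TFEB-injected livers, against 9.07, 9.18 and 9.17 in not-injected livers. No other of the 10 genes had a wider gap, and the distance between groups was more than the whole spread within them. Arsa rose 1.92-fold (log2 change 0.94 ± 0.08 SE; 95% interval 0.74 to 1.14; limma adjusted p = 4.83e-04), and 0.904% of all genes had a higher log2 change. It has 1 probe set, so no other probe set bears on this value. Its promoter window, printed above, is one of those with CACGTG.

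Galns encodes the sulfatase that opens keratan sulfate and chondroitin 6-sulfate. It had log2 levels of 7.89, 7.95 and 8.09 in TFEB-injected livers, against 7.77, 7.64 and 7.68 in not-injected livers. The groups were separate, with not-injected replicate 1 closest to the injected range. Galns rose by 0.28 ± 0.06 on the log2 scale (1.22-fold; limma adjusted p = 0.0233). Leaving out not-injected replicate 2 (adjusted p = 0.0877), not-injected replicate 3 (0.0745) or TFEB-injected replicate 2 (0.0718) ended the call.

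Ids and Sgsh encode the iduronate and glucosamine sulfatases of heparan sulfate breakdown. Ids had log2 levels of 7.10, 6.97 and 7.03 in TFEB-injected livers, against 7.14, 7.11 and 7.06 in not-injected livers. The groups overlapped, and the log2 change was -0.07 ± 0.05 (95% interval -0.19 to 0.05; limma adjusted p = 0.420). Its other 4 probe sets had mean levels between the 1.58 and 22.2 percentiles of all probe sets. Their log2 changes were 0.21, 0.02, -0.05 and 0.15, none past the threshold. The probe sets at 0.21 and 0.15 had every injected liver above every control, and those at 0.02 and -0.05 had overlapping groups. The Sgsh log2 level was 6.66, 6.83 and 6.78 in TFEB-injected livers, against 6.81, 6.79 and 6.72 in not-injected livers. Injected livers lay both above and below the controls. The log2 change was -0.013 ± 0.058 (95% interval -0.15 to 0.12; limma adjusted p = 0.912), and -0.07 ± 0.08 for the other probe set. For these lead probe sets the intervals reach no further than 1.04-fold higher for Ids and 1.09-fold higher for Sgsh, while that of Arsa begins at 1.67-fold. The differences between the sulfatases were not tested. Sgsh, like Arsa, holds CACGTG in the window printed above.

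The 3 injected livers did not stand at the same height. TFEB-injected replicate 3 was the highest of the injected livers in 7 of the 10 genes, replicate 2 in 2 and replicate 1 in 1; replicate 3 was also the highest in 44.3% of all genes. Among genes whose injected livers all lay above the controls, replicate 3 was the highest in 6 of the 7 of these 10 and in 52.0% of all 2253. Set against the mean of the not-injected livers, the median of the 10 genes was 0.21 in TFEB-injected replicate 1, 0.28 in replicate 2 and 0.41 in replicate 3. Arsa shifted by 0.80, 0.89 and 1.12 and Grn by 0.77, 0.82 and 0.99 in these livers. On its lead probe set Ppt1, at 0.40, 0.44 and 0.37, had its smallest shift where Arsa and Grn had their largest. Its dimmer probe set was instead highest in replicate 3, with log2 levels of 7.69, 7.77 and 7.93 in replicates 1, 2 and 3.

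**Figure D3:**
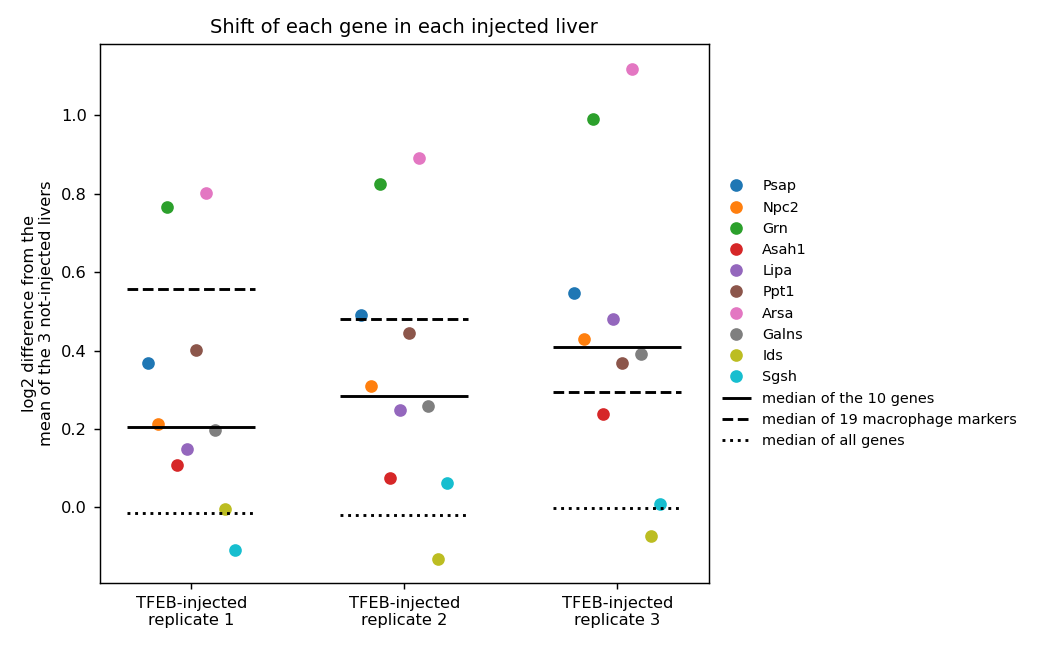
Log2 difference of each gene (points) from the mean of the 3 not-injected livers in each TFEB-injected liver, with the medians of the 10 genes, of 19 macrophage markers and of all genes as lines. The median of the 10 genes is highest in replicate 3 at 0.41, where the macrophage median is lowest at 0.29.

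Macrophages are rich in lysosomes, and most of their markers were higher in the injected group. Of 19 measured macrophage and Kupffer cell markers 13 rose and 0 fell, against 9.99% and 7.92% of all genes. Their mean log2 level was 9.13 to 9.35 in TFEB-injected livers, against 8.83 to 8.85 in not-injected livers. Not called were Lyz2 (log2 change 0.68), Adgre1 (0.45), Cd163 (0.10), Mrc1 (0.08), Msr1 (0.0035) and Marco, given below. The Kupffer cell genes Cd5l, for a secreted scavenger protein, and Vsig4, for a complement receptor, rose by 0.63 ± 0.05 and 0.50 ± 0.06 on the log2 scale (limma adjusted p = 2.37e-04 and 0.00141). The median shift of the markers was 0.56, 0.48 and 0.29 in TFEB-injected replicates 1, 2 and 3, while that of the 10 genes was 0.21, 0.28 and 0.41. The highest log2 change among the markers, 0.87 ± 0.31 for Marco (adjusted p = 0.0991), did not pass; Marco was named after its value was seen. The part of macrophages in the changes of the 10 genes was not tested.

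Markers of other cell types were read in the same fit, in which 9.99% of all genes rose and 7.92% fell. Of 12 endothelial markers, 2 rose, Stab2 (1.42 ± 0.05) and Lyve1 (0.89 ± 0.07), both for receptors that bind hyaluronan, and the median was 0.0051. Of 10 stellate cell markers 1 rose (Col3a1, 0.32 ± 0.05) and 3 fell, among them Lrat (-0.48 ± 0.10) and Reln (-0.19 ± 0.04). Of 11 lymphocyte markers 2 rose, the pan-leukocyte gene Ptprc (0.46 ± 0.07) and Gzma (0.36 ± 0.08), and of 6 neutrophil markers 1, S100a8 (0.25 ± 0.07; adjusted p = 0.0499). In not-injected livers the lymphocyte list averaged log2 levels of 5.88 to 5.92 and the neutrophil list 5.46 to 5.49. Of 7 pancreatic acinar markers 4 fell, including Cela1 (-0.85 ± 0.05) and Prss2 (-0.38 ± 0.07), and the median was -0.35. The not-injected mean was 10.62 for Cela1 and 7.13 for Prss2, but only 4.98 (Cpb1) to 6.21 (Ctrb1) for the rest of the acinar list. Hepatocyte markers averaged log2 levels of 14.11 to 14.14 in TFEB-injected livers, against 14.16 to 14.17 in not-injected livers, near the top of a scale whose highest value was 15.20. Of these 10, Hpx rose (0.22 ± 0.05), Tat fell (-0.49 ± 0.05) and the median was 0.0026. The calls of Lrat, Reln, Gzma, S100a8 and Hpx were each lost on leaving out any 1 of 3 to 6 arrays, in every case including TFEB-injected replicate 2 (highest adjusted p 0.154). The count of stellate markers that fell was 0 or 1 without any 1 not-injected array or TFEB-injected replicate 2, and that of acinar markers was 2 when replicate 2 of either group, or TFEB-injected replicate 1, was left out.

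The neighbours of the 10 genes in their pathways were mixed, and are read beside the 9.99% of all genes that rose and the 7.92% that fell. Of 13 other measured genes of sphingolipid and sterol breakdown, 7 rose and 1 fell, with a median of 0.15. Hexa, for a subunit of the hexosaminidase that trims gangliosides, rose by 1.29 ± 0.10 on the log2 scale (limma adjusted p = 2.59e-04), and Smpdl3a, for a phosphodiesterase related to acid sphingomyelinase, by 0.54 ± 0.05. Galc, for galactosylceramidase, which takes the galactose off the lipid that ARSA leaves, had log2 levels of 6.50, 6.54 and 6.73 in TFEB-injected livers, against 7.01, 7.11 and 6.87 in not-injected livers. It fell by 0.41 ± 0.08 (adjusted p = 0.0157) where Arsa, the step before it, rose. Leaving out not-injected replicate 1, not-injected replicate 2 or TFEB-injected replicate 2 ended that call (highest adjusted p 0.0672).

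Of 8 other genes of sulfate ester and sugar chain breakdown, 2 rose and 1 fell, with a median of 0.04. Sumf1, whose product activates the sulfatases, rose by 0.51 ± 0.05 on the log2 scale, with levels of 10.16, 10.18 and 10.24 in TFEB-injected livers, against 9.72, 9.70 and 9.64 in not-injected livers (limma adjusted p = 6.55e-04). Gusb, for beta-glucuronidase, rose by 0.24 ± 0.04, a call that ended without TFEB-injected replicate 2 (adjusted p = 0.0507). Hgsnat, for the acetyltransferase of heparan sulfate breakdown, fell by 0.19 ± 0.05, a call lost without any 1 array except TFEB-injected replicate 3 (highest adjusted p 0.105). The gene of the enzyme that activates all 4 sulfatases passed the test, as did Arsa and Galns, while Ids and Sgsh did not.

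Ppt1 and Grn belong with the ceroid lipofuscinosis genes, whose human mutations leave lipopigment in lysosomes. Of 10 others measured, a list that also holds Ppt2 beside the disease genes, 6 rose and 0 fell, with a median of 0.30. The endoplasmic reticulum gene Cln6 rose by 1.62 ± 0.11 on the log2 scale (limma adjusted p = 1.89e-04) and Tpp1, for a lysosomal tripeptidyl peptidase, by 0.89 ± 0.06. Of 9 genes listed for bringing hydrolases, prosaposin or progranulin to lysosomes, 3 rose and 2 fell, with a median of 0.07. That list also holds Tmem106b, for a lysosomal membrane protein that is not such a carrier. Tmem106b was among those that rose (0.93 ± 0.14, limma adjusted p = 0.00416) and was named after its value was seen. The adaptor gene Gga2 rose by 1.02 ± 0.07 and Gnptab, for the enzyme that starts the mannose 6-phosphate tag, by 0.46 ± 0.05, although 1 of its 2 other probe sets had the opposite sign. Lrp1, an uptake receptor for prosaposin, fell by 0.24 ± 0.05 and the adaptor gene Gga1 by 0.19 ± 0.04. Leaving out not-injected replicate 2, not-injected replicate 3 or TFEB-injected replicate 2 ended both of these calls (highest adjusted p 0.0523 for Lrp1 and 0.104 for Gga1), and leaving out not-injected replicate 1 also that of Gga1.

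**Figure D4:**
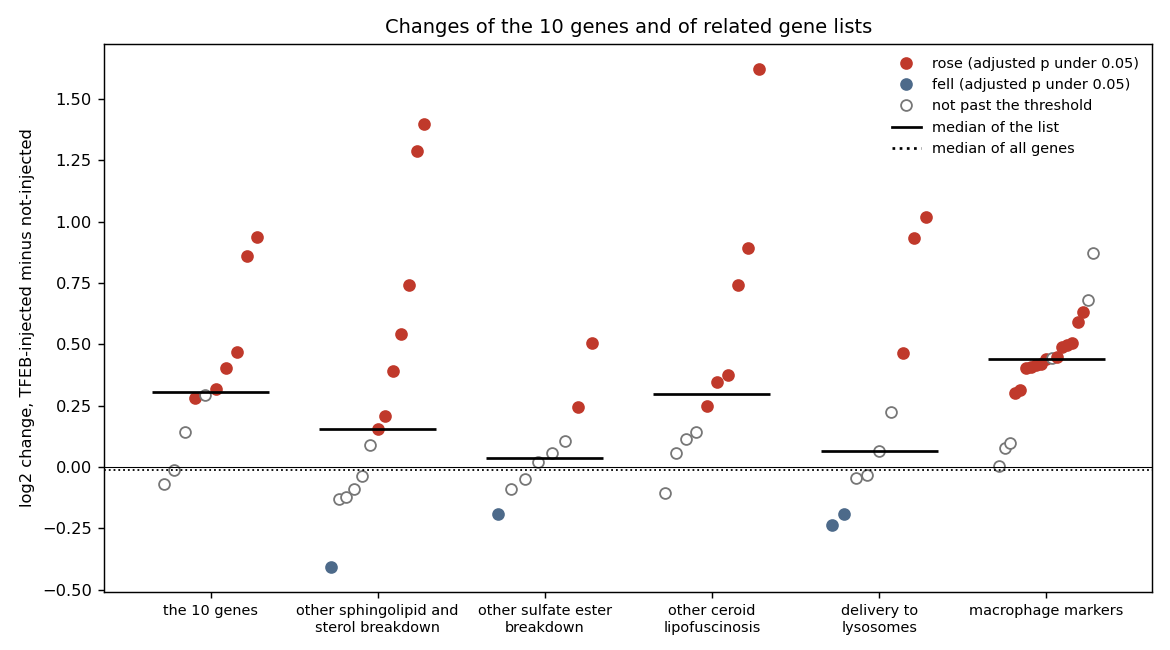
Log2 change (TFEB-injected minus not-injected, vertical axis) of every measured gene of 6 lists, filled where it passed the adjusted threshold, with the list medians and the median of all genes (Cln3 and Glb1, each measured in 2 of the lists, are drawn in both). The 10 genes, the ceroid lipofuscinosis genes and the macrophage markers have called genes above 0 only, while Galc, Hgsnat, Lrp1 and Gga1 are the called genes below 0 in the other lists.

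The targeted genes themselves did not pass the test. The Tfeb probe set gave 7.63, 7.46 and 7.69 in TFEB-injected livers, against 7.52, 7.63 and 7.51 in not-injected livers (log2 change 0.04 ± 0.07; limma adjusted p = 0.777). For Ppara the log2 level was 9.08, 9.04 and 9.12 in TFEB-injected livers, against 8.98, 8.87 and 9.01 in not-injected livers (means 9.08 ± 0.04 and 8.95 ± 0.07, SD, n = 3 each; adjusted p = 0.149). Neither checks the labels, since the species of the vector's TFEB and the deleted part of Ppara are not stated in the sources used here. Correlations between arrays over all genes were 0.995 to 0.998 within the injected group, 0.998 to 0.999 within the not-injected group and 0.989 to 0.993 between groups.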

How the data were processed

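Total liver RNA of 6 mice, 3 TFEB-injected and 3 not-injected, was hybridised to 1 Affymetrix array per mouse, with groups and replicate numbers from the labels. The deposited values are log2 expression levels (3.08 to 15.20) that the authors made with RMA and affy, per the submitters' processing notes, which name no version; RMA quantile normalises and summarises probes. RMA hides shifts in total RNA and compresses changes of dim probe sets. The platform annotation gave 1 gene symbol to 20393 of 22690 probe sets; 20380 (12393 genes) were tested after controls were left out.

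The log2 values were fitted with limma 3.58.1 (R 4.3.3; lmFit, eBayes) and adjusted by Benjamini-Hochberg over all genes, threshold 0.05; errors are SD (levels) or SE (changes). Changes are injected minus not-injected. The fit was tested on simulated data. Promoter letters and figures used Python 3.11.15 and matplotlib 3.10.9. The labels call the arrays biological replicates.

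The members and gene lists (other sphingolipid, sulfate, ceroid lipofuscinosis and delivery genes, and macrophage, endothelial, stellate, lymphocyte, neutrophil, acinar and hepatocyte markers) were chosen with earlier results of these data known. Named were all members, Tfeb and Ppara, the 2 called genes with the smallest p in each direction of each list, and for 2 members (largest change, smallest p) the 3 genes of most similar pattern. Alternatives were other probe set rules, median centring, cyclic loess, a filter on dim genes, other variance models, a replicate block, each array left out in turn and other thresholds.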

Additional observations from a re-analysis of the deposited data

How the results depend on the processing

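Psap, Arsa, Ppt1 and Grn kept their rise and their call under all alternatives run, and Asah1 stayed uncalled and higher. Without 1 array, the log2 changes ranged from 0.43 to 0.52 (Psap), 0.09 to 0.19 (Asah1), 0.85 to 1.01 (Arsa), 0.20 to 0.36 (Lipa), 0.26 to 0.37 (Npc2), 0.37 to 0.44 (Ppt1), -0.0498 to 0.0356 (Sgsh), -0.10 to -0.04 (Ids), 0.23 to 0.33 (Galns) and 0.80 to 0.91 (Grn). Their median ranged from 0.25 to 0.37, and 4 (without TFEB-injected replicate 2) to 7 genes rose. Over all genes 722 to 1344 then rose and 507 to 1065 fell, against 1238 and 981 with all arrays. Lipa passed with the dimmer genes, those under the median, left out (0.29; adjusted p = 0.0382), with an intensity trend and robust prior (0.29; adjusted p = 0.0332) and with array weights (0.26; adjusted p = 0.00343). Sgsh, near 0, changed sign with cyclic loess (0.0097) and array weights (0.0485), and Ids with the mean of its probe sets (0.0529). Array weights also called Ids lower (-0.14; adjusted p = 0.0169), so that 1 gene fell, and called 2717 genes higher and 3137 lower. That fit gave TFEB-injected replicate 2 a weight of 16.3 and no other array one above 1.19, and its iteration stopped before it converged. At an adjusted p under 0.01, 4 of the 10 genes rose, with 645 of all genes (5.20%) higher and 408 lower. At 0.1, 7 of the 10 rose, with 1617 of all genes (13.0%) higher and 1472 lower. With the dim genes left out, Ids and Sgsh were not tested.

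Replicate numbers did not pair the arrays. Deviations from the group means of same-numbered arrays correlated at 0.01, -0.13 and -0.11, and 0 of 6 arrays correlated best with its own number. With the replicate number as a block, Galns was no longer called (0.28, limma adjusted p = 0.0633). Then 5 of the 10 genes rose, with 923 of all genes (7.45%) higher and 610 lower. The falls of Galc, Hgsnat, Lrp1, Gga1 and Reln and the rises of Hpx and Npc1 also lost their call under the block (adjusted p = 0.0515, 0.0761, 0.0557, 0.0822, 0.0779, 0.0708 and 0.128). The cause of these moves was not tested.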

Other observations

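By Pearson's r over the 6 arrays, used as a measure of likeness, the genes outside the 10 with the pattern most like that of Arsa were Kifap3 (r = 0.99928), Atp6v1e1 (0.99909), for a subunit of the lysosomal proton pump, and Gde1 (0.99909), for a glycerophosphodiesterase. They rose by 0.49 ± 0.06, 0.46 ± 0.06 and 0.57 ± 0.06 on the log2 scale (SE). Most like Grn were Apoc2 (r = 0.99986), for an activator of lipoprotein lipase, H2-Ab1 (0.99944), for an MHC class II chain, and Fam102a (0.99851). They rose by 0.56 ± 0.06, 0.51 ± 0.06 and 0.95 ± 0.07. The arrays fall into 2 groups, so any gene with a large gap between them has a high r.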
